A study of Mus musculus with 9 samples.

Results

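Mature neutrophils carry surface proteins and receptors that steer how they leave the bone marrow, find tissue and respond there. The 9 genes described here are Ly6g, Cd177, Retnlg, Cxcr2, Cxcr4, Csf3r, Trem1, Trem3 and Clec4d. They were taken by gene symbol from the gene table of the series, each as 1 row, so that 9 of 45706 listed genes are described. All 9 were among the 13248 genes that were tested, which needed 1 TPM or more in 3 or more of the 9 libraries. TPM is a transcript abundance corrected for transcript length and scaled to the same total in every library.

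Whole lungs were profiled by RNA sequencing, with possible immune-related adverse events as the question of the study. All mice were female BALB/c, aged 4 to 6 weeks, and all carried 4T1 cells, a mouse mammary carcinoma line, injected into the right flank. One group received nanocapsules of an antibody against PD1 (nanocapsule), another the antibody itself (anti-PD1), and the last phosphate-buffered saline (PBS). PD1 is a receptor that inhibits activated T cells. Treatments were given on days 7 and 14, and lungs were taken on day 21. The labels give 150 µg per mouse, and their wording does not settle whether the antibody given alone had that amount too. The groups held 3 lungs each. The labels number the lungs but name no animals. The p-values therefore measure the spread among these samples, which may be technical. A tumour-free group was not analysed here, and the tumour is shared by all 3 groups.

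Neutrophils are made in the bone marrow under granulocyte colony-stimulating factor (G-CSF), which acts through the receptor encoded by Csf3r. CXCR4 holds neutrophils in the marrow by binding CXCL12, and CXCR2, which binds chemokines such as CXCL1 and CXCL2, promotes their release and their entry into tissue. Ly6G and CD177 are surface proteins anchored by a lipid, and Ly6G is the standard antibody target for mouse neutrophils. TREM1, TREM3 and the C-type lectin receptor encoded by Clec4d signal through adaptor proteins and amplify inflammatory responses. 4T1 tumours are known for a strong increase of granulocytes in mice. Several of these genes are also used outside neutrophils, with Cxcr4 in lymphocytes and monocytes and with Trem1, Csf3r and Clec4d in monocytes.

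Promoter sequences are shown for the 3 genes that differed most between nanocapsule and anti-PD1 lungs, Ly6g, Cd177 and Retnlg, and for Cxcr4, the member that differed least there. They are the 250 bases before the transcription start in RefSeq on GRCm38.p6, written 5′ to 3′ along the gene. Capitals mark matches to the PU.1 core GAGGAA or to the C/EBP pattern TTNNGNAA, each searched on both strands. Both factors act in the development of granulocytes. The Ly6g window lies at chr15:75155011-75155260 on the plus strand and the Cd177 window at chr7:24760312-24760561 on the minus strand. Retnlg has its window at chr16:48872358-48872607 on the plus strand and Cxcr4 at chr1:128592300-128592549 on the minus strand.
Ly6g: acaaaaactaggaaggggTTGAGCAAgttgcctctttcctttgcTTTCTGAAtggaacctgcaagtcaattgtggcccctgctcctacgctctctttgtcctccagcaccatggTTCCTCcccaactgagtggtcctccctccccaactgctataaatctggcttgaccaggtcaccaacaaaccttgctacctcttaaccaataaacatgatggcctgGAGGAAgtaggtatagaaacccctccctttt
Cd177: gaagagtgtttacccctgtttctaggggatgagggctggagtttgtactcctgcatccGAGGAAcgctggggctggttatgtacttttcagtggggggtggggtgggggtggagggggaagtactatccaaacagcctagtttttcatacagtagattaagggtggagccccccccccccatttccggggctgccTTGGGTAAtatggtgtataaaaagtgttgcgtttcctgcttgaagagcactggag
Retnlg: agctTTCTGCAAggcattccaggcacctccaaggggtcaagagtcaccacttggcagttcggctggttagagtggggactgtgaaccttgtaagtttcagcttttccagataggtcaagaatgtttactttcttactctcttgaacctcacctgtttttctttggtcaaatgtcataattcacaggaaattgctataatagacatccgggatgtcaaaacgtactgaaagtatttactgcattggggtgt
Cxcr4: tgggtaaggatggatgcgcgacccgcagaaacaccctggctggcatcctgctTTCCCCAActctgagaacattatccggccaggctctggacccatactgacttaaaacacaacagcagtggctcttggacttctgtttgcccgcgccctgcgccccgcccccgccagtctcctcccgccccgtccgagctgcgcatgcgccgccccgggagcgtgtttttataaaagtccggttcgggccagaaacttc
Of the 9 members, 8 were matched in the promoter table, which spans 250 bases before to 50 after each start. The PU.1 core occurred in a window of 6 of these 8 members, against 28.3% of all 32851 windows of the same length, and the C/EBP pattern in 6 of 8, against 40.7%. Ly6g counts once although it has a pair of overlapping windows. No match of one pattern overlapped a match of the other. Ly6g and Cd177 hold both patterns, while the Retnlg and Cxcr4 windows hold the C/EBP pattern without the PU.1 core. A match describes these letters and is not a measured binding site.

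The labelled tissue was checked first. Sftpc, the surfactant protein C gene of the alveolar epithelium, lay between 343 and 3410.4 TPM in the 9 libraries. A library had 12194 to 13407 genes at 1 TPM or more. Spearman correlations were 0.973 to 0.982 within groups, and across groups 0.950 to 0.981. No columns were identical, and no batch is labelled. TPM keep no sequencing depth, so the depth behind each value is unknown. The smallest two-sided p of an exact permutation test with 3 lungs a group is 0.1, so single values are given with their overlap and with the fit across all tested genes.

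As a set of transcripts the 9 genes were abundant. Their summed TPM was 13375 ± 1623 in nanocapsule lungs, 8154 ± 360 in anti-PD1 lungs and 11974 ± 1613 in PBS lungs (SD, n = 3 each). This was 1.19% to 1.51% of all TPM in nanocapsule lungs, 0.774% to 0.837% in anti-PD1 lungs and 1.10% to 1.38% in PBS lungs. Retnlg alone supplied 56.3% to 69.6% of the sum in a library. Without Retnlg the sum was 4615 ± 471 TPM in nanocapsule lungs, 3385 ± 296 TPM in anti-PD1 lungs and 4607 ± 651 TPM in PBS lungs (SD, n = 3 each). In whole lung, fewer neutrophils and less RNA of a gene per neutrophil cannot be told apart.

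The order of the levels, which TPM allow across genes, was similar at the top and bottom. Retnlg, Csf3r and Cxcr2 ranked highest, in that order, by mean TPM in each of the 3 groups, and Trem3 ranked last in each. In nanocapsule lungs Cxcr2 and Ly6g overlapped between libraries, as did each neighbouring pair in the order Cxcr4, Trem1, Clec4d and Trem3. In anti-PD1 lungs Ly6g overlapped with Cd177 and Cd177 with Cxcr4, and so did Trem1 with Clec4d and Clec4d with Trem3. In PBS lungs Cxcr2 overlapped with Cd177, Cd177 with Ly6g, and Trem1 with Clec4d. The mean of Ly6g lay above that of Cd177 in nanocapsule and anti-PD1 lungs and below it in PBS lungs.

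**Figure D1:**
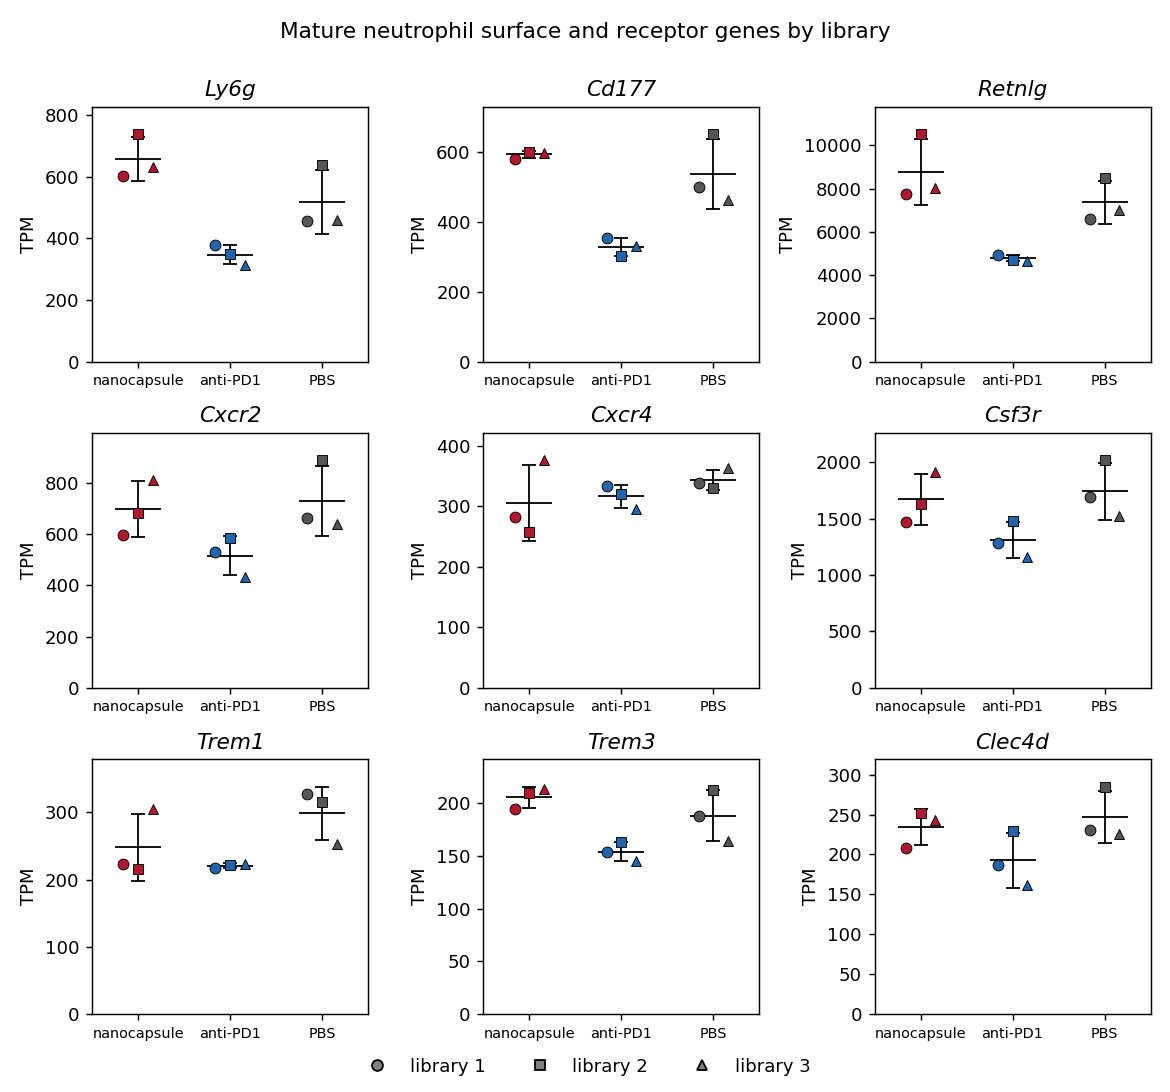
Level of the 9 genes in TPM (vertical axes, from 0) in each of the 9 libraries, with the groups nanocapsule, anti-PD1 and PBS from left to right. Points are libraries, with the marker shape giving the library number within its group, horizontal bars are means and error bars are SD (n = 3). The 3 anti-PD1 points lie below all other points for Ly6g, Cd177 and Retnlg, and by less for Cxcr2 and Trem3. The groups overlap for Cxcr4.

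The first comparison set nanocapsule lungs against anti-PD1 lungs. Cd177 was higher, at 595 TPM on average in nanocapsule lungs against 329 TPM in anti-PD1 lungs, beside 539 TPM in PBS lungs. It was the 1 member of 9 called by limma over all tested genes. Ly6g and Retnlg had differences of the same size and missed the threshold narrowly. Cxcr2 and Trem3 were higher by value with no overlap between the groups, while Csf3r, Trem1 and Clec4d overlapped. Cxcr4 did not follow the others. Over all 13248 genes the same test called 14 genes, 9 higher and 5 lower, which is 0.106% of those tested.

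Ly6g encodes the lipid-anchored protein used to identify mouse neutrophils. It lies on chromosome 15 from 75155240 to 75159126 on the plus strand of GRCm38, and like the other 8 genes it is protein coding in the GENCODE M21 annotation. Its level was 604, 739 and 634 TPM in nanocapsule lungs, against 377, 349 and 315 TPM in anti-PD1 lungs. The lowest nanocapsule lung stood well above the highest anti-PD1 lung. On the log2(TPM + 1) scale the difference was 0.92 (SE 0.14, limma adjusted p = 0.0519).

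Cd177 encodes a neutrophil surface glycoprotein that, in humans, binds the endothelial adhesion molecule PECAM1. The gene spans chromosome 7 from 24743983 to 24760311 on the minus strand. Cd177 stood at 582, 602 and 599.6 TPM in nanocapsule lungs, against 355, 302 and 330.5 TPM in anti-PD1 lungs. The nanocapsule lungs were nearly alike, with a coefficient of variation of 1.79%, and lay clear of the anti-PD1 lungs. The log2 difference was 0.85 (SE 0.13, limma adjusted p = 0.0448), a ratio of 1.81. This call was lost in 11 of 20 alternative settings, in which the adjusted p ranged from 0.00992 to 0.311 and the difference from 0.79 to 1.02. It was lost on leaving out any single nanocapsule or anti-PD1 lung or PBS 1.

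Retnlg encodes a resistin-like protein that is secreted rather than held at the surface. It maps to chromosome 16 from 48872621 to 48874496 on the plus strand. Nanocapsule lungs had 7743, 10524 and 8014 TPM of Retnlg, against 4926, 4709 and 4673 TPM in anti-PD1 lungs. The lowest nanocapsule lung exceeded the highest anti-PD1 lung, and nanocapsule 2 stood above the other nanocapsule lungs. The log2 difference was 0.86 (SE 0.16, limma adjusted p = 0.0519).

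The chemokine receptors differed from each other. Cxcr2, on chromosome 1 from 74153989 to 74161246 on the plus strand, was at 595, 683 and 812 TPM in nanocapsule lungs, against 529, 583 and 433 TPM in anti-PD1 lungs. These groups did not overlap, but the lowest nanocapsule lung and the highest anti-PD1 lung were close. Its log2 difference was 0.43 (SE 0.17, limma adjusted p = 0.138). Cxcr4, on the same chromosome from 128588199 to 128592293 on the minus strand, was at 282, 257 and 376 TPM in nanocapsule lungs, against 333, 321 and 296 TPM in anti-PD1 lungs. The nanocapsule values of Cxcr4 enclosed all 3 anti-PD1 values. Its log2 difference was -0.07 (SE 0.13, limma adjusted p = 0.736), with the sign turned to 0.10 under median-of-ratios scaling and to 0.01 when S100a8 and S100a9 were taken out of the total.

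Csf3r, the G-CSF receptor gene, lies on chromosome 4 from 126024550 to 126044440 on the plus strand. It had 1467, 1631 and 1914 TPM in nanocapsule lungs, against 1287, 1479 and 1159 TPM in anti-PD1 lungs. Nanocapsule 1 lay just below anti-PD1 2, so the groups overlapped. The log2 difference was 0.35 (SE 0.15, limma adjusted p = 0.158).

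Trem1 and Trem3 are neighbours on the plus strand of chromosome 17, from 48232768 to 48246924 and from 48247777 to 48258841, with 852 bases between them. Trem1 encodes a receptor that amplifies inflammatory signals through the adaptor DAP12. It was at 223, 216 and 305 TPM in nanocapsule lungs, against 217, 222 and 224 TPM in anti-PD1 lungs, and nanocapsule 3 alone stood apart. The log2 difference of Trem1 was 0.15 (SE 0.14, limma adjusted p = 0.497), and it was -0.0097 without nanocapsule 3 and 0.24 without nanocapsule 2. Trem3, an activating relative in the mouse that also uses DAP12, was at 195, 209.5 and 213 TPM in nanocapsule lungs, against 154, 163 and 146 TPM in anti-PD1 lungs. Here the groups did not overlap, and the log2 difference was 0.41 (SE 0.10, limma adjusted p = 0.0745). The difference between the changes of Trem1 and Trem3 was not tested.

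Clec4d encodes a C-type lectin receptor for mycobacterial glycolipids that works with Clec4e. It lies on chromosome 6 from 123262111 to 123275265 on the plus strand. Its level was 208, 252 and 243 TPM in nanocapsule lungs, against 187, 229.6 and 162 TPM in anti-PD1 lungs. The groups overlapped through nanocapsule 1 and anti-PD1 2, and the log2 difference was 0.29 (SE 0.14, limma adjusted p = 0.211). It was 0.17 without anti-PD1 3 and 0.42 without anti-PD1 2.

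Counted together, 8 of the 9 members were higher by value and 1 was lower, with a median log2 difference of 0.41. Over all tested genes the median was -0.17, and 29.2% were higher. Median-of-ratios scaling moved that median to -0.03 and the members' median to 0.59, with 9 of 9 members higher. At an unadjusted p under 0.05 there were 6 members and 3670 genes of 13248. Of the members, 5 had nanocapsule lungs all above anti-PD1 lungs, a pattern that 8.73% of tested genes showed. None had them all below, which 24.6% of tested genes showed. The split of all called genes also moved with the scaling, to 19 higher and 2 lower under median-of-ratios scaling and to 60 higher and 15 lower under quantile normalization.

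**Figure D2:**
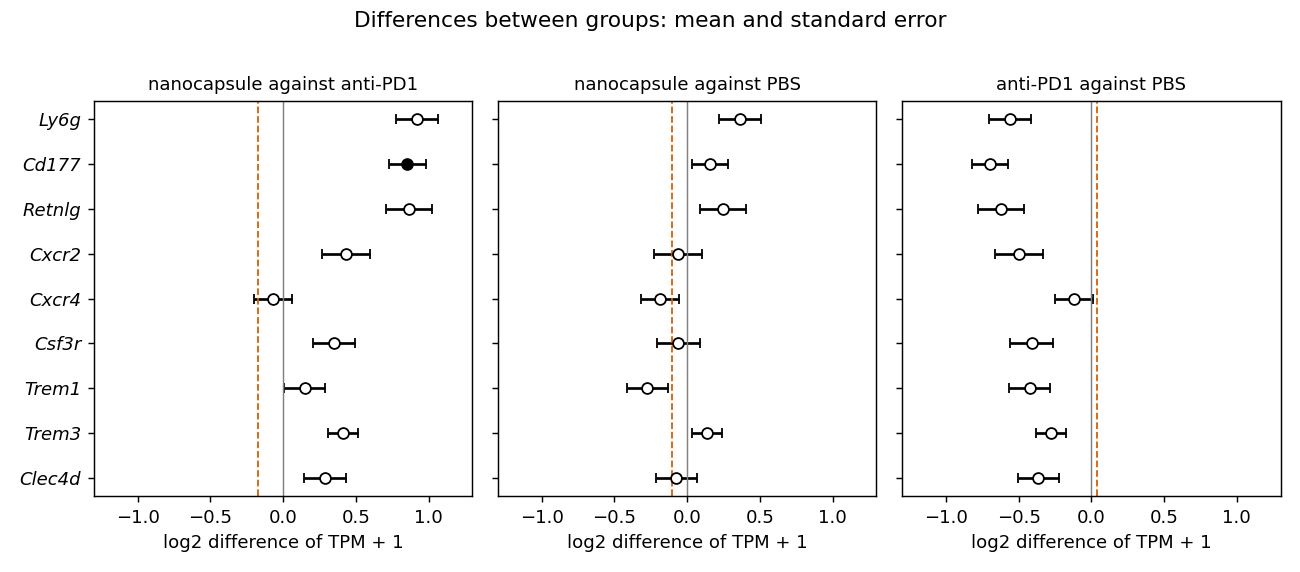
Log2 difference of TPM + 1 (horizontal axes) for each of the 9 genes (rows) in the 3 comparisons (panels), with error bars of 1 SE from limma. Filled points passed an adjusted p under 0.05, open points did not, and the dashed line is the median of all 13248 tested genes. Cd177 in the nanocapsule against anti-PD1 panel, at 0.85, is the 1 filled point.

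The second comparison set nanocapsule lungs against PBS lungs. No member was called by limma, which called 1 gene of 13248, or 0.00755%, and 1 member, Ly6g, had an unadjusted p under 0.05, as did 1343 tested genes. Ly6g had 604, 739 and 634 TPM in nanocapsule lungs, against 456, 638 and 458 TPM in PBS lungs. Nanocapsule 1 and nanocapsule 3 lay below PBS 2, so the groups overlapped, and the log2 difference was 0.36 (SE 0.14, limma adjusted p = 0.454). Cd177 averaged 595 ± 10.7 TPM in nanocapsule lungs and 539 ± 100.2 TPM in PBS lungs (SD, n = 3 each), with log2 values 0.16 apart (SE 0.13, limma adjusted p = 0.675). This value was 0.30 without PBS 2 and 0.059 without PBS 3. Retnlg averaged 8760.5 ± 1534 TPM in nanocapsule lungs and 7367 ± 999.7 TPM in PBS lungs, with log2 values 0.24 apart (SE 0.16, limma adjusted p = 0.607), and 0.11 apart without nanocapsule 2.

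Cxcr2 averaged 697 ± 109 TPM in nanocapsule lungs and 729.9 ± 137 TPM in PBS lungs (SD, n = 3 each), and its log2 difference was -0.06 (SE 0.17, limma adjusted p = 0.916). Csf3r averaged 1671 ± 226 TPM in nanocapsule lungs and 1743 ± 252 TPM in PBS lungs, with a difference of -0.06 (SE 0.15). Clec4d averaged 234 ± 23.1 TPM in nanocapsule lungs and 247 ± 32.7 TPM in PBS lungs, with a difference of -0.07 (SE 0.14). These 3 differences turned positive under median-of-ratios scaling and without PBS 2 or nanocapsule 1. Trem3 averaged 206 ± 9.90 TPM in nanocapsule lungs and 188 ± 24.3 TPM in PBS lungs, with a difference of 0.13 (SE 0.10) that was 0.23 without PBS 2 and 0.041 without PBS 3. The differences below zero that were larger by value belonged to Trem1, at -0.28 (SE 0.14, limma adjusted p = 0.529), and Cxcr4, at -0.19 (SE 0.13, limma adjusted p = 0.627). Without nanocapsule 3 these were -0.43 for Trem1 and -0.35 for Cxcr4, and without nanocapsule 2 Cxcr4 was at -0.076. Trem1 was at 223, 216 and 305 TPM in nanocapsule lungs, against 327, 316 and 253 TPM in PBS lungs. Nanocapsule 3 lay above PBS 3, so the groups overlapped.

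By value 4 members were higher and 5 lower, with a median of -0.06 beside -0.11 over all tested genes. Of all tested genes 28.8% were higher and 71.2% lower. No member had groups that did not overlap, while 2.4% of tested genes had nanocapsule lungs all above and 11.9% all below PBS lungs. Without PBS 2 or nanocapsule 1, or with median-of-ratios scaling, 7 members were higher and 2 lower. PBS 2 had the highest level of the PBS group in 7 members, with Ly6g at 638 TPM, Retnlg at 8497 TPM and Cxcr2 at 888 TPM.

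The third comparison set anti-PD1 lungs against PBS lungs. Any pair of the 3 comparisons shares the libraries of 1 group, so they are not independent. All 9 members were lower by value, as were 43.1% of all tested genes. None of the members was called by limma, which called 1 gene, or 0.00755%, of those tested. At an unadjusted p under 0.05 there were 8 members and 2192 tested genes. Anti-PD1 lungs lay all below PBS lungs in 7 members, a pattern that 13.4% of tested genes showed. None lay all above, which 12.1% of tested genes showed. The members' median log2 difference was -0.42, beside 0.04 over all tested genes.

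Ly6g was at 377, 349 and 315 TPM in anti-PD1 lungs, against 456, 638 and 458 TPM in PBS lungs. Its log2 difference was -0.56 (SE 0.14, limma adjusted p = 0.211), and it was -0.40 without PBS 2. Cd177 was at 355, 302 and 330.5 TPM in anti-PD1 lungs, against 499.5, 653 and 464 TPM in PBS lungs. All 3 anti-PD1 lungs lay below every PBS lung, and the log2 difference was -0.70 (SE 0.13, limma adjusted p = 0.211). Retnlg averaged 4769 ± 137 TPM in anti-PD1 lungs and 7367 ± 999.7 TPM in PBS lungs (SD, n = 3 each), with a difference of -0.62 (SE 0.16, limma adjusted p = 0.211). Anti-PD1 lungs varied little in Retnlg, with a coefficient of variation of 2.86%.

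Cxcr2 had 529, 583 and 433 TPM in anti-PD1 lungs, against 661, 888 and 641 TPM in PBS lungs, and the difference on the log2 scale was -0.50 (SE 0.17, limma adjusted p = 0.225). Csf3r averaged 1308 ± 161 TPM in anti-PD1 lungs and 1743 ± 252 TPM in PBS lungs (SD, n = 3 each), a difference of -0.41 (SE 0.15, limma adjusted p = 0.235). Both receptors had no overlap between the groups. Trem1 had 217, 222 and 224 TPM in anti-PD1 lungs, against 327, 316 and 253 TPM in PBS lungs, with a difference of -0.42 (SE 0.14, limma adjusted p = 0.225). Trem3 averaged 154 ± 8.70 TPM in anti-PD1 lungs and 188 ± 24.3 TPM in PBS lungs, a difference of -0.28 (SE 0.10, limma adjusted p = 0.243). In these 2 genes too the groups did not overlap. Clec4d and Cxcr4 did overlap, with log2 differences of -0.36 (SE 0.14) for Clec4d and -0.12 (SE 0.13) for Cxcr4, which was -0.070 without anti-PD1 3. Cxcr4 averaged 317 ± 19.0 TPM in anti-PD1 lungs and 344 ± 17.1 TPM in PBS lungs (SD, n = 3 each).

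The balance of the marrow-release receptor and the marrow-retention receptor was described as the log2 ratio of Cxcr2 to Cxcr4. The ratio of TPM was 2.11, 2.65 and 2.16 in nanocapsule lungs, 1.59, 1.82 and 1.46 in anti-PD1 lungs and 1.95, 2.69 and 1.77 in PBS lungs. Cxcr2 was the higher of the pair in every library. On the log2 scale the mean was 1.20 ± 0.18 in nanocapsule lungs, 0.69 ± 0.16 in anti-PD1 lungs and 1.07 ± 0.32 in PBS lungs (SD, n = 3 each). Nanocapsule lungs lay above anti-PD1 lungs by 0.51 without overlap, and by 0.33 when the library highest in Rag1 and Dntt was left out of each group. Nanocapsule lungs exceeded PBS lungs by 0.13, and anti-PD1 lungs differed from PBS lungs by -0.38, both with overlap. These values rest on single libraries. The first was 0.31 without PBS 2, 0.0018 without PBS 3, 0.074 without PBS 1 and 0.022 without nanocapsule 2, and the second was -0.20 without PBS 2. The first fell below zero when nanocapsule 2 and PBS 3, the libraries highest in Rag1 and Dntt, were left out together. The log2 ratios then left were 1.08 and 1.11 in nanocapsule lungs and 0.96 and 1.43 in PBS lungs. No p is given for this ratio, since it is a score over a pair of the chosen genes.

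**Figure D3:**
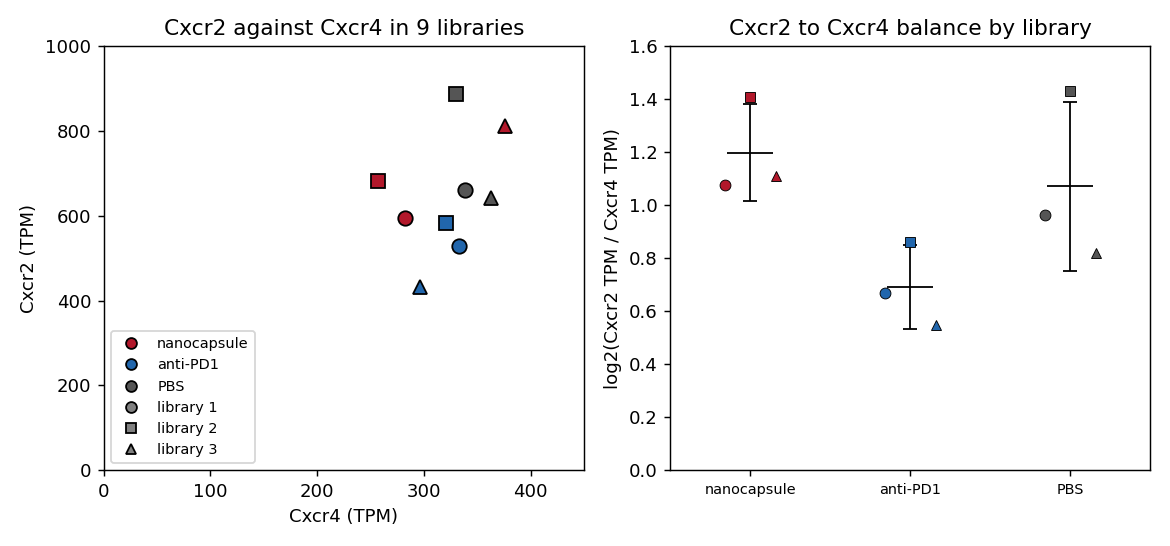
Left, Cxcr2 (vertical axis, TPM) against Cxcr4 (horizontal axis, TPM) in the 9 libraries, coloured by group and with marker shapes for the library number. Right, log2 of the ratio of Cxcr2 TPM to Cxcr4 TPM by library, with nanocapsule, anti-PD1 and PBS from left to right, horizontal bars for means and error bars for SD (n = 3). The anti-PD1 ratios, with a mean of 0.69, lie below all nanocapsule ratios and overlap the PBS ratios.

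The ligands of these receptors were low or did not pass the test. Of 6 CXCR2 ligands 5 were tested, and all 5 were lower by value in nanocapsule than in anti-PD1 lungs. Over all tested genes 70.8% were lower there, with a median log2 difference of -0.17. The 5 ligands had a median of -0.45, and none was called. Cxcl2, the most abundant of them, averaged 635 ± 191 TPM in nanocapsule lungs, 749 ± 87.1 TPM in anti-PD1 lungs and 727 ± 65.8 TPM in PBS lungs (SD, n = 3 each). Ppbp, a chemokine stored in platelets, averaged 6.77 ± 0.38 TPM in nanocapsule lungs and 14.1 ± 5.50 TPM in anti-PD1 lungs (limma adjusted p = 0.105). Cxcl15, a lung epithelial chemokine of the mouse, varied from 20.3 to 115 TPM in nanocapsule lungs, and Cxcl3 averaged 7.45 ± 3.72 TPM there. Cxcl5 was too low to be tested. In nanocapsule lungs against PBS lungs 1 ligand was higher and 4 were lower, and in anti-PD1 lungs against PBS lungs 4 were higher and 1 lower, with none called.

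Cxcl12, the CXCR4 ligand, was at 3.57, 1.79 and 2.39 TPM in nanocapsule lungs, 4.41, 3.96 and 6.60 TPM in anti-PD1 lungs and 2.47, 1.36 and 3.22 TPM in PBS lungs. All 3 anti-PD1 lungs lay above all others. The log2 difference was -0.75 for nanocapsule against anti-PD1 lungs (SE 0.27, limma adjusted p = 0.125) and 0.86 for anti-PD1 against PBS lungs (SE 0.27, limma adjusted p = 0.219). Ackr3, which scavenges CXCL12, averaged 1.35 ± 0.29 TPM in nanocapsule lungs, 2.65 ± 1.02 TPM in anti-PD1 lungs and 2.21 ± 0.99 TPM in PBS lungs (SD, n = 3 each). On the log2(TPM + 1) scale the change of such low genes is understated.

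Csf3, which encodes G-CSF itself, was at most 0.17 TPM in any library, was listed at 0 in 1 anti-PD1 and 1 PBS lung, and was not tested. Of the other 10 genes of G-CSF signalling none was called in any comparison. In nanocapsule against anti-PD1 lungs 7 were higher and 3 lower by value, with a median of 0.08, and in anti-PD1 against PBS lungs 2 were higher and 8 lower, with a median of -0.26. Nanocapsule against PBS lungs gave 1 higher and 9 lower. Stat3, the main transcription factor below the G-CSF receptor, averaged 134 ± 15.1 TPM in nanocapsule lungs, 128 ± 12.4 TPM in anti-PD1 lungs and 162 ± 19.9 TPM in PBS lungs (SD, n = 3 each). Ptpn6, a phosphatase that restrains the receptor, averaged 363 ± 33.2 TPM in nanocapsule lungs, 329 ± 16.1 TPM in anti-PD1 lungs and 391 ± 12.5 TPM in PBS lungs.

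Among 15 genes that signal with TREM and C-type lectin receptors, none was called. In nanocapsule against anti-PD1 lungs 10 were higher and 5 lower, in nanocapsule against PBS lungs 9 and 6, and in anti-PD1 against PBS lungs 5 and 10. Tyrobp, which encodes DAP12, averaged 2916 ± 231 TPM in nanocapsule lungs, 2449 ± 331 TPM in anti-PD1 lungs and 2719 ± 124 TPM in PBS lungs (SD, n = 3 each). Pglyrp1, a neutrophil granule protein that can act as a TREM1 ligand, averaged 2553 ± 226 TPM in nanocapsule lungs, 1606 ± 86.3 TPM in anti-PD1 lungs and 2213 ± 448 TPM in PBS lungs. Its nanocapsule lungs lay all above its anti-PD1 lungs, and the difference on the log2 scale was 0.67 (SE 0.14, limma adjusted p = 0.0650). Treml2, another gene of the TREM cluster, averaged 43.1 ± 4.21 TPM in nanocapsule lungs, 28.8 ± 1.75 TPM in anti-PD1 lungs and 46.4 ± 10.5 TPM in PBS lungs. Malt1, a protease of the CARD9 pathway, averaged 15.5 ± 3.33 TPM in nanocapsule lungs, 18.2 ± 1.45 TPM in anti-PD1 lungs and 21.1 ± 1.24 TPM in PBS lungs.

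Relatives of Ly6g and Retnlg were described by family. Of 12 other Ly6 family genes 8 were tested and none was called, with 3 higher and 5 lower in nanocapsule against anti-PD1 lungs, 6 and 2 in nanocapsule against PBS lungs, and 5 and 3 in anti-PD1 against PBS lungs. Ly6a, which encodes Sca-1 of stem cells, lymphocytes and endothelium, averaged 49.8 ± 18.0 TPM in nanocapsule lungs, 99.6 ± 24.9 TPM in anti-PD1 lungs and 49.97 ± 22.3 TPM in PBS lungs (SD, n = 3 each). Ly6c2, a marker of inflammatory monocytes, averaged 306 ± 27.6 TPM in nanocapsule lungs, 222 ± 44.4 TPM in anti-PD1 lungs and 265 ± 47.5 TPM in PBS lungs. Ly6d, a lymphoid marker, averaged 10.4 ± 3.50 TPM in nanocapsule lungs, 21.4 ± 10.6 TPM in anti-PD1 lungs and 20.1 ± 6.54 TPM in PBS lungs. In the resistin family, Retnla and Retn were lower by value in all 3 comparisons and neither was called. Retnla averaged 49.1 ± 19.8 TPM in nanocapsule lungs, 51.7 ± 18.1 TPM in anti-PD1 lungs and 92.8 ± 17.1 TPM in PBS lungs, and Retn averaged 2.63 ± 0.76 TPM in nanocapsule lungs, 3.44 ± 1.43 TPM in anti-PD1 lungs and 3.50 ± 1.40 TPM in PBS lungs.

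Other neutrophil genes, mostly of surface proteins and receptors, were listed alongside, 40 in all with 39 tested. In nanocapsule against anti-PD1 lungs 36 were higher and 3 lower, with a median log2 difference of 0.39, 26 had nanocapsule lungs all above, and limma called 1, Ceacam10. In anti-PD1 against PBS lungs all 39 tested genes were lower, with a median of -0.34, 21 had anti-PD1 lungs all below, and none was called. Nanocapsule against PBS lungs gave 21 higher and 18 lower, with a median of 0.01. Over all tested genes the medians of these comparisons were -0.17, 0.04 and -0.11, in the order given. Of all tested genes 0.106% were called and 8.73% lay all above in nanocapsule against anti-PD1 lungs. In anti-PD1 against PBS lungs 13.4% lay all below. Ceacam10, of the carcinoembryonic antigen family, averaged 93.9 ± 9.75 TPM in nanocapsule lungs and 52.6 ± 5.25 TPM in anti-PD1 lungs (SD, n = 3 each, limma adjusted p = 0.0448). Ltb4r1, the leukotriene B4 receptor that guides neutrophils, averaged 251 ± 4.51 TPM in nanocapsule lungs and 153 ± 12.0 TPM in anti-PD1 lungs (limma adjusted p = 0.0519). Ifitm6 averaged 4183.5 ± 291 TPM in nanocapsule lungs and 2180.3 ± 329 TPM in anti-PD1 lungs (limma adjusted p = 0.0519). In PBS lungs Ceacam10 averaged 82.0 ± 9.33 TPM, Ltb4r1 216 ± 42.9 TPM and Ifitm6 3545 ± 834 TPM.

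Granule and precursor genes of neutrophils stood beside the members with a larger median. Of 17, 15 were higher and 2 lower in nanocapsule against anti-PD1 lungs, with a median log2 difference of 0.88, and limma called Cebpe, Elane and Padi4, all higher. In nanocapsule against PBS lungs 14 were higher and 3 lower, and in anti-PD1 against PBS lungs 2 were higher and 15 lower, with a median of -0.70 and none called. Over all tested genes the medians were -0.17 in nanocapsule against anti-PD1 lungs, where 0.106% were called, and 0.04 in anti-PD1 against PBS lungs. Elane, the gene of neutrophil elastase made in precursors, averaged 13.9 ± 2.43 TPM in nanocapsule lungs and 5.32 ± 0.53 TPM in anti-PD1 lungs (SD, n = 3 each, limma adjusted p = 0.0393). S100a8, which encodes part of calprotectin, averaged 72701 ± 2419 TPM in nanocapsule lungs and 47655 ± 1649 TPM in anti-PD1 lungs (limma adjusted p = 0.124). In PBS lungs Elane averaged 12.2 ± 1.87 TPM and S100a8 61656 ± 12535 TPM. What these lists contribute to the members' differences was not tested.

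Genes of several other cell types lay lower by value in the first comparison. All 8 B cell, 9 T cell, 8 endothelial and 8 alveolar macrophage genes tested were lower in nanocapsule than in anti-PD1 lungs. So were the 5 platelet and 6 immature thymocyte genes tested, and none of these genes was called. Of all 13248 tested genes 70.8% were lower in this comparison, with a median log2 difference of -0.17. Summed TPM of the B cell list were 192 to 269.6 in nanocapsule lungs, 335 to 572 in anti-PD1 lungs and 325 to 621 in PBS lungs. The T cell list summed to 317 to 369.7 TPM in nanocapsule lungs, 362 to 1194 TPM in anti-PD1 lungs and 374 to 848 TPM in PBS lungs. Endothelial genes summed to 30.0 to 74.3 TPM in nanocapsule lungs, 102 to 190.02 TPM in anti-PD1 lungs and 31.8 to 81.1 TPM in PBS lungs. Alveolar macrophage genes summed to 1472 to 2373 TPM in nanocapsule, 2663 to 3261 TPM in anti-PD1 and 1675 to 2585 TPM in PBS lungs. Of this, Chil3, which is also in the neutrophil granule and precursor list, averaged 727, 1036 and 860 TPM in the same order. Platelet genes summed to 36.7 to 46.0 TPM in nanocapsule lungs, 59.95 to 115 TPM in anti-PD1 lungs and 40.7 to 63.2 TPM in PBS lungs.

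The 7 monocyte genes were all higher by value in nanocapsule than in anti-PD1 lungs, with sums of 605 to 799.7 TPM in nanocapsule lungs, 475 to 685 TPM in anti-PD1 lungs and 595 to 719.8 TPM in PBS lungs. Of 4 eosinophil genes tested 3 were higher and 1 lower there, and the list summed to 26.1 to 31.6 TPM in nanocapsule lungs, 14.6 to 26.6 TPM in anti-PD1 lungs and 60.2 to 104 TPM in PBS lungs. Of 6 alveolar epithelial genes 1 was higher and 5 were lower in nanocapsule than in anti-PD1 lungs, and the list summed to 858 to 4189 TPM in nanocapsule lungs, 1649 to 4053 TPM in anti-PD1 lungs and 516 to 1332 TPM in PBS lungs. Immature thymocyte genes summed to 16.1 to 36.5 TPM in nanocapsule lungs, 17.3 to 134 TPM in anti-PD1 lungs and 17.8 to 53.7 TPM in PBS lungs. Rag1 and Dntt, which are used in developing lymphocytes, were together at 16.8 TPM in nanocapsule 2, 75.1 TPM in anti-PD1 3 and 22.7 TPM in PBS 3, the highest of each group. No gene of these lists was at 0 in all libraries, and their part in the members' differences was not tested.

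The members were also set against S100a8 and S100a9, the calprotectin genes, in the same library, a ratio chosen after the values were seen. Calprotectin transcripts took 16.2% ± 1.13 of all TPM in nanocapsule lungs, 11.2% ± 0.84 in anti-PD1 lungs and 13.8% ± 2.53 in PBS lungs (SD, n = 3 each). Per 1000 TPM of these, Ly6g was at 3.90, 4.22 and 4.06 in nanocapsule lungs, 3.31, 2.92 and 3.06 in anti-PD1 lungs and 3.58, 3.81 and 3.80 in PBS lungs. The ratio of Ly6g was thus higher in nanocapsule than in anti-PD1 lungs without overlap, by 1.31 times. Cd177 and Retnlg kept a higher ratio there too, by 1.25 and 1.26 times, without overlap. Cxcr2, Csf3r and Trem3 overlapped, at 0.94, 0.89 and 0.93 times, and so did Trem1 at 0.78 times. Cxcr4 and Clec4d were lower without overlap, at 0.67 and 0.85 times, while in plain TPM both overlapped between these groups. Calprotectin took a larger share of TPM in nanocapsule than in anti-PD1 lungs, so a gene with equal TPM has a lower ratio in nanocapsule lungs.

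In the same ratio, anti-PD1 lungs lay below PBS lungs without overlap for Ly6g, Cd177, Retnlg and Cxcr2, at 0.83, 0.76, 0.80 and 0.87 times. Trem3 was at 1.004 times and Cxcr4 at 1.11 times, both with overlap. Nanocapsule lungs against PBS lungs gave 1.09 times for Ly6g, higher without overlap, and 0.95 times for Cd177 and 0.80 times for Clec4d, both lower without overlap, while the other 6 members overlapped. A ratio within a library shows unequal levels and does not say which of the genes moved. The share of all tested genes without overlap in this ratio was not computed for any comparison.

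**Figure D4:**
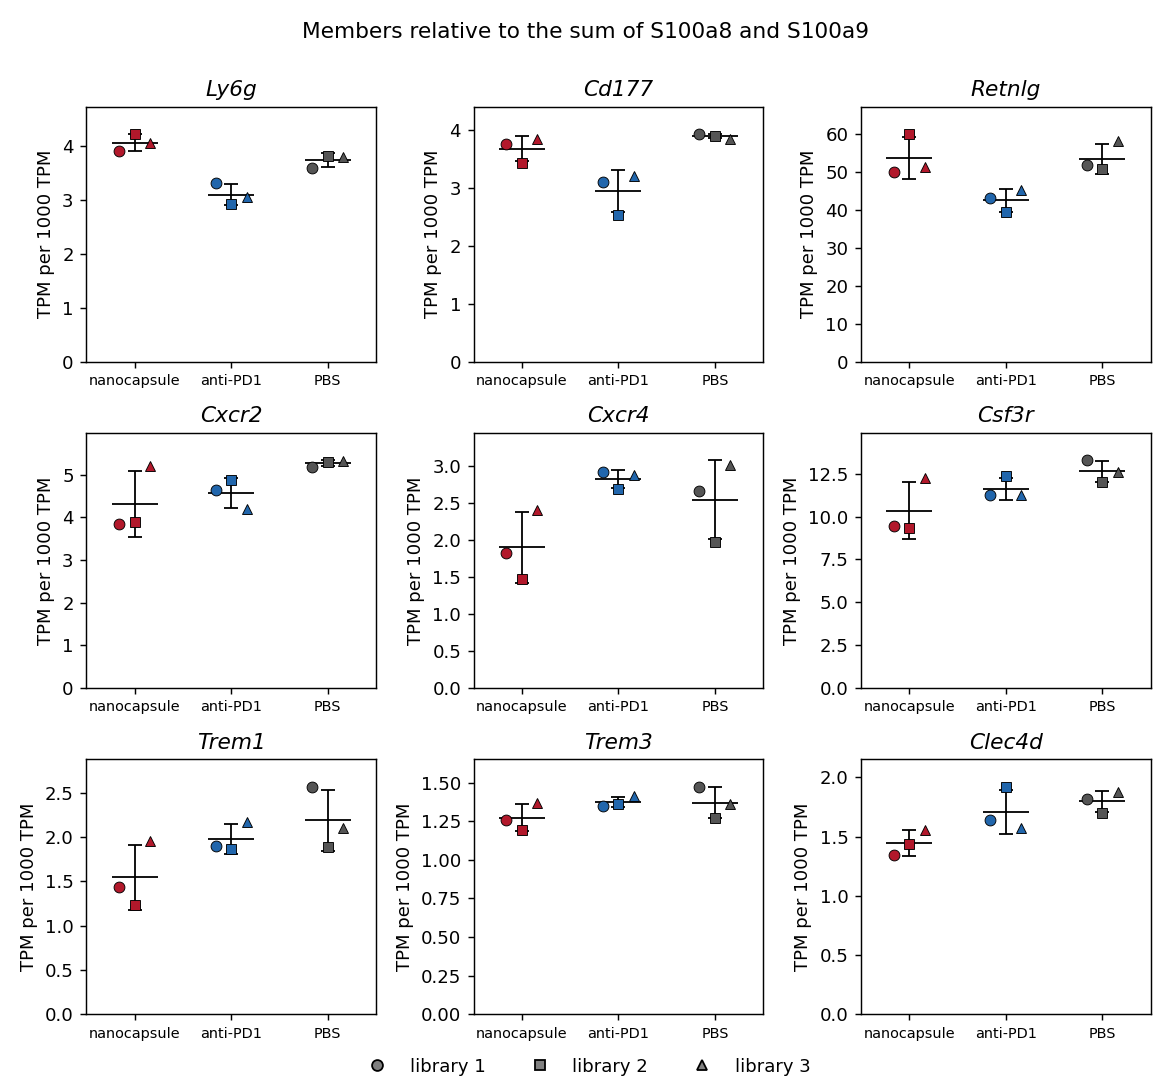
TPM of each of the 9 genes per 1000 TPM of S100a8 and S100a9 together (vertical axes, from 0) in each library, with nanocapsule, anti-PD1 and PBS from left to right. Points are libraries, horizontal bars means and error bars SD (n = 3). The nanocapsule points lie above the anti-PD1 points for Ly6g, Cd177 and Retnlg and below them for Cxcr4 and Clec4d.

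Likeness among the members across the 9 libraries is given as Pearson correlations of log2(TPM + 1) with no test, since the libraries share the tissue, the 3 groups and the TPM scaling. Ly6g correlated with Retnlg at 0.98, with Cd177 at 0.95 and with Trem3 at 0.94. Cxcr2 correlated with Csf3r at 0.99 and with Clec4d at 0.94. Ly6g with Cxcr2 was at 0.78. Cxcr4 stood furthest apart, with -0.19 against Ly6g, -0.22 against Retnlg and 0.33 against Cxcr2, and its highest value was 0.62, with Trem1. Trem1 was also less alike, at 0.32 with Ly6g, 0.32 with Retnlg and 0.52 with Cd177, though at 0.71 with Cxcr2 and 0.77 with Csf3r. Trem1 and its neighbour Trem3 correlated at 0.52.

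Outside the 9 genes, those most like the members' mean over the 9 libraries were Nudt4 (Pearson r 0.990), Zyx (0.988), Agpat9 (0.988), Rab27a (0.987) and Dhrs9 (0.987). Those most like Cxcr2 were Il10rb (0.989), Emilin2 (0.989) and the member Csf3r (0.987). Cxcr4 was matched best by RP23-23C4.6 (0.979), Alcam (0.978) and Tmx3 (0.968). These genes were picked from 13248 for their likeness, so the correlations describe the choice. Nudt4 averaged 156 ± 18.0 TPM in nanocapsule lungs, 120.3 ± 10.7 TPM in anti-PD1 lungs and 156 ± 13.7 TPM in PBS lungs (SD, n = 3 each). Alcam averaged 19.6 ± 5.67 TPM in nanocapsule lungs, 20.1 ± 0.95 TPM in anti-PD1 lungs and 22.1 ± 1.996 TPM in PBS lungs.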

How the data were processed

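Polyadenylated RNA of 9 lungs was sequenced. The authors deposited 1 table of gene-level TPM, scaled to the same total in each library. Its name gives salmon, and per the submitters' processing notes GRCm38 and DESeq2 were used, without stated roles or versions. Filters before deposition are not given in the sources used here. As TPM hold no counts, depth is unknown and no count test was run.

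Genes that reached 1 TPM in 3 or more libraries entered 1 fit of log2(TPM + 1) with limma 3.58.1 in R 4.3.3, which used an intensity trend and shared 1 spread among the 3 groups (6 residual degrees of freedom). Two-sided tests were used, with Benjamini-Hochberg adjustment over all 13248 tested genes and a threshold of 0.05. The fit was also run on data simulated with independent noise for each gene, a setting that these libraries need not meet. Groups overlap unless every library of one lies above every library of the other. Positions come from GENCODE M21 on GRCm38.

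The members and the 17 other gene lists were chosen with earlier results of these data known. All members are named, and from each other list up to 3 genes with the smallest limma p, a few fixed genes and the genes most like the members in pattern. Of the genes this rule names, 1 is not reported here. Cell marker lists are given by sums and counts. Some lists share genes, so their counts are not independent. Chil3 is in the alveolar macrophage and the neutrophil granule and precursor lists. The platelet list shares Ppbp with the CXCR2 ligands and Treml1 with the TREM and C-type lectin list. Alternatives covered the pseudocount, filters, scalings, variance models, the replicate block and the omission of libraries. Figures were drawn with matplotlib 3.10.9.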

Additional observations from a re-analysis of the deposited data

How the results depend on the processing

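Of 540 member differences recomputed over 20 alternatives, 497 kept their direction and side of the threshold, 19 newly passed, 11 no longer passed, all of them Cd177 in nanocapsule against anti-PD1 lungs, and 13 turned sign. The cause of these changes was not tested. Where members were called in nanocapsule against anti-PD1 lungs they were Ly6g, Cd177, Retnlg and Trem3 or some of these. In that comparison limma called 14 genes and 1 member as reported. It called 3 genes and 0 members without a filter, 197 and 3 at a mean of at least 5 TPM, 75 and 3 under quantile normalization, 71 and 3 without S100a8 and S100a9, 2 and 0 without the intensity trend, 79 and 3 with robust empirical Bayes, and 476 and 4 with the pair of groups alone. Median-of-ratios scaling called 0 members. Leaving out the library of each group highest in Rag1 and Dntt gave 1 gene and 0 members, and a Cxcr2 to Cxcr4 log2 difference of 0.33. Leaving out 1 library at a time gave 0 to 962 genes and 0 to 4 members, with 962 and 4 without PBS 2.

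For nanocapsule against PBS lungs, with 1 gene as reported, the number was 2 with a pseudocount of 0.1, 0 without a filter, 3 at 5 TPM, 4 under median-of-ratios scaling, 0 under quantile normalization, 4 without S100a8 and S100a9, 2 without the trend, 4 with robust empirical Bayes, 0 without the Rag1 and Dntt libraries, and 0 to 4 without single libraries. For anti-PD1 against PBS lungs, with 1 gene as reported, it was 0 with a pseudocount of 0.1, under median-of-ratios scaling, under quantile normalization, without S100a8 and S100a9 and without the trend, and 0 to 3 without single libraries.

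Signs turned in 5 members. Without single libraries, the nanocapsule against anti-PD1 difference lay between -0.23 and 0.042 for Cxcr4 and between -0.0097 and 0.24 for Trem1, and Cxcr4 was at 0.10 under median-of-ratios scaling and 0.012 without S100a8 and S100a9. Against PBS lungs, median-of-ratios scaling gave 0.054 for Cxcr2, 0.057 for Csf3r and 0.043 for Clec4d, and single omissions gave -0.18 to 0.086, -0.16 to 0.050 and -0.13 to 0.032. In anti-PD1 against PBS lungs all 9 members stayed lower in each of the 20 alternatives.

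The labels number libraries 1 to 3 in each group. Correlations of the deviations of same-numbered libraries ran from -0.18 to 0.28. In 10 of 18 pairs of a library and another group, the highest of the 3 correlations was with the same number. These values do not settle whether the numbers pair the lungs. The labels name no animals, and the main fit used no pairing. With the replicate number as a block, limma called 1095 genes and 4 members in nanocapsule against anti-PD1 lungs, 238 of the genes higher and 857 lower, and 5 genes in nanocapsule against PBS lungs. The unknown depth limits the precision of low genes such as Csf3 and Cxcl5.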
